A study of Mus musculus with 158 samples.

Results

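Mitochondrial ribosomal protein genes, taken as every gene row whose symbol starts with Mrpl or Mrps followed by a digit, numbered 76 of the 21956 gene rows, of which 47 were Mrpl and 29 were Mrps genes. They were described in RNA from mouse brain cells drawn into a patch pipette, untreated, with the polyA RNA of each cell amplified in 3 rounds before sequencing. The 158 libraries came from 149 cells in 6 groups. Cultured cortical astrocytes numbered 86 cells, of which 83 were of strain C57/BL6/N and 3, of 7 days in culture, of strain C57/BL6; 70 had been cultured for 12 days, 5 for 14 days and 8 for 15 days. Cultured hippocampal neurons numbered 8 cells of strain C57/BL6, all of 15 days in culture. Acute slices of strain C57/BL6/N gave 5 CA3 neurons, 15 CA1 neurons and 22 cortical neurons; CA3 and CA1 are fields of the hippocampus. Cultured cortical neurons of strain C57/BL6/N numbered 13 cells, 3 each of 6, 10 and 15 days and 4 of 13 days in culture. The labels name no animal, litter or culture, so each group counted as 1 sample: differences between groups are described, and no test between them was possible.

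Mitochondria carry their own ribosomes, which translate the few proteins encoded in mitochondrial DNA, all of them subunits of the respiratory chain complexes that couple electron transfer to ATP synthesis. The RNAs of these ribosomes come from mitochondrial DNA, whereas their proteins are encoded in the nucleus, made in the cytosol and imported, so that the genes described here are scattered over the nuclear chromosomes (17 of them in GENCODE M21). Many of the proteins descend from bacterial ribosomal proteins and others are found only in mitochondria. In brain, neurons depend on oxidative phosphorylation, and astrocytes combine it with a high glycolytic rate. By the role of the protein in the mammalian mitoribosome, 49 members encode large subunit proteins, 26 encode small subunit proteins and 1, Mrps36, encodes a protein since assigned to the 2-oxoglutarate dehydrogenase complex. The products of Mrps30 and Mrps18a, named after the small subunit, sit in the large one. A bacterial counterpart exists for 46 members, and 29 are specific to mitochondria. Mrpl57 and Mrpl58 stood in the table under older symbols, Mrp63 and Ict1, and so fell outside the symbol rule. No row of the table named a gene of mitochondrial DNA.

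Start regions of 4 members are printed, from 250 bases before to 50 bases after the start given by RefSeq (GRCm38.p6), because their levels set the range described further on: Mrps6 was the most widely detected member in astrocytes, Mrpl51 and Mrpl42 were detected in most cultured cells, and Mrps18b was detected in the fewest cells. Capitals mark the ETS motif CCGGAAG or its reverse complement CTTCCGG, and the YY1 motif AAGATGGC.
Mrps6 (chr16:92058086-92058385, + strand): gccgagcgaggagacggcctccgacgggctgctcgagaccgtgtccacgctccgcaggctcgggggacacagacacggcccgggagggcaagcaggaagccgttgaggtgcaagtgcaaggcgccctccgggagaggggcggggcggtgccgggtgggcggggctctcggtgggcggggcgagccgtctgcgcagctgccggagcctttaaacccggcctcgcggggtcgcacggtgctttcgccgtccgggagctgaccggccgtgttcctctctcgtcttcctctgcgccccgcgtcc
Mrpl51 (chr6:125191950-125192249, + strand): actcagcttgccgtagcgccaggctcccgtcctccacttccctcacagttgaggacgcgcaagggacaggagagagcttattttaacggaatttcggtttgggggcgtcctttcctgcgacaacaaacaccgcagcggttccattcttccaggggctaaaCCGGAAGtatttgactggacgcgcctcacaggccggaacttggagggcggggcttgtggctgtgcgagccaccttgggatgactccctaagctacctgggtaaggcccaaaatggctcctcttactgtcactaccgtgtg
Mrpl42 (chr10:95501900-95502199, - strand): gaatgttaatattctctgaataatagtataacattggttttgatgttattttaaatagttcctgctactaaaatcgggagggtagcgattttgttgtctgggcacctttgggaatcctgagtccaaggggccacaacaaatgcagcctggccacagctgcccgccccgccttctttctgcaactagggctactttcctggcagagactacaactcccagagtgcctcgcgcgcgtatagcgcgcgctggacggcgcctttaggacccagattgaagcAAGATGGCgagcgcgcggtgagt
Mrps18b (chr17:35916391-35916690, - strand): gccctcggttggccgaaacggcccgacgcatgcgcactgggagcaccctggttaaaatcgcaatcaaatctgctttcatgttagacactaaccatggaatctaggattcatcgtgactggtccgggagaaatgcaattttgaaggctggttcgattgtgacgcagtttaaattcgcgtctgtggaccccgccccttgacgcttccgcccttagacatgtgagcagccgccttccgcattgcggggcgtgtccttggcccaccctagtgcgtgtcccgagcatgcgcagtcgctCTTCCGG

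RefSeq gave a start region for 67 of the 76 members. The ETS motif, on either strand, stood in 24 of the 67 (35.8%) and in 13.4% of the 15634 genes of the count table that had such a region. The YY1 motif (AAGATGGC or GCCATCTT) stood in 12 members (17.9%), against 3.81% of the table's genes, and the palindromic NRF1 motif of 10 bases in 3 members (4.48%), against 1.57%. CCAAT or ATTGG stood in 27 members (40.3%), against 41.9%, and TATAAA or TTTATA in 5 members (7.46%), against 13.4%. These matches describe letters in a window and were not tied to binding of any factor. Among the regions printed, Mrpl51 and Mrps18b both hold the ETS motif, and Mrps6 holds none of the ETS, YY1 and NRF1 letters. The Mrps6 region is shared with Slc5a3, the gene of the sodium and myo-inositol cotransporter, which starts 14 bases upstream on the same strand in RefSeq, so that 286 of the 300 bases are common to both.

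Library totals ran between 535369 and 38680739 counts, with a median of 10735985. Levels are given in counts per 1000000 of a group's summed counts (CPM), or of a cell's counts where a value is per cell. For detection every cell was thinned at random to 1000000 counts, and a gene was called detected in a cell at 5 or more of them; 1 CA1 cell lay below that depth, which left 14. More astrocyte than neuron markers were detected in 86 of 86 astrocytes, 0 of 8 cultured hippocampal neurons, 0 of 5 CA3, 1 of 14 CA1 and 3 of 22 cortical slice neurons, and 3 of 13 cultured cortical neurons. At least 3 of 12 microglia markers were detected in 11 of 86 astrocytes, 0 of 8 cultured hippocampal neurons, 0 of 5 CA3, 8 of 14 CA1 and 9 of 22 cortical slice neurons, and 3 of 13 cultured cortical neurons.

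The summed level of the members was highest in cultured cortical astrocytes, a rank that rested on 1 member, Mrps6. It was lowest in cortical slice neurons, whereas by the median cell CA1 was lowest. The number of members detected per cell was far lower in slice cells than in most cultured cells. Their summed level was 6318 CPM in cultured cortical astrocytes (95% Poisson interval 6313 to 6322), 5746 CPM in cultured hippocampal neurons (5730 to 5761), 5868 CPM in CA3 (5840 to 5897), 3995 CPM in CA1 (3981 to 4009) and 3663 CPM in cortical slice neurons (3653 to 3672), and 5021 CPM in cultured cortical neurons (5011 to 5031). These Poisson intervals cover counting error only, and amplified reads that carry no molecular identifier cannot be taken as separate molecules. Differences between cells were far larger. Per cell, the summed level ran between 582 and 17454 CPM in astrocytes (median 6205), between 5034 and 7120 CPM in cultured hippocampal neurons (median 5839), between 46.5 and 13783 CPM in CA1 (median 2374), between 256 and 12521 CPM in cortical slice neurons (median 2471) and between 1145 and 9689 CPM in cultured cortical neurons (median 5070). The 5 CA3 cells had 5044, 9941, 2482, 2995 and 3153 CPM. The cultured hippocampal neurons were the most alike, with a coefficient of variation of 11.4%, against 41.1% in astrocytes, 65.1% in CA3, 113% in CA1, 90.5% in cortical slice and 50.9% in cultured cortical neurons. All 6 ranges overlapped. Without its second cell the CA3 sum was 3505.5 CPM.

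A median of 44.5 of the 76 members was detected per astrocyte (range 5 to 73), 71 per cultured hippocampal neuron (51 to 76), 8.5 per CA1 (2 to 29) and 9 per cortical slice neuron (1 to 60), and 35 per cultured cortical neuron (4 to 60). The 5 CA3 cells had 10, 9, 9, 7 and 9 members detected. No cultured hippocampal neuron overlapped with a CA3 or CA1 cell, and 1 cortical slice neuron, with 60, reached the range of the cultured hippocampal neurons.

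**Figure D1:**
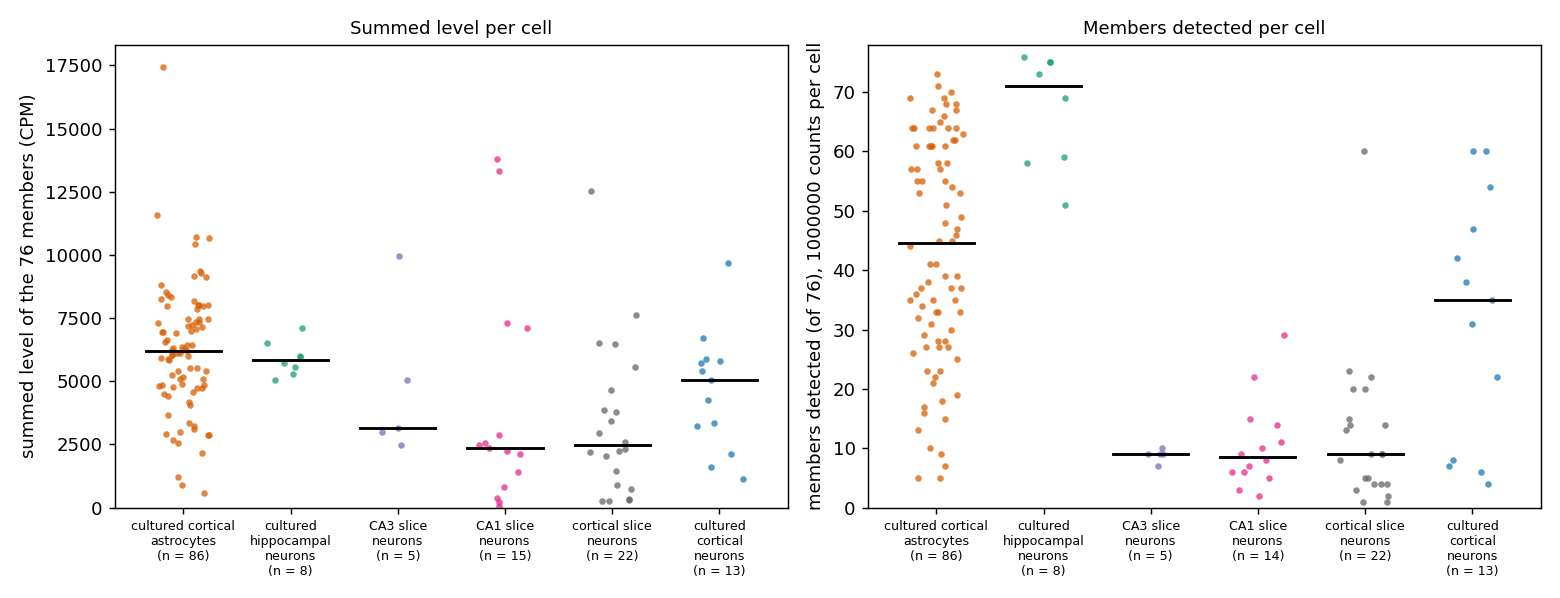
Summed level of the 76 members in CPM (left) and number of members detected at 1000000 counts (right), 1 point per cell, by group; black lines are medians over cells. The medians of summed level lie between 2374 and 6205 CPM, while the medians of members detected run between 8.5 in CA1 and 71 in cultured hippocampal neurons.

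The number of members detected moved with the number of all genes detected in the same cell, whose medians were 4921 in astrocytes, 7507 in cultured hippocampal neurons, 2150 in CA3, 1895 in CA1 and 1808 in cortical slice neurons, and 4447 in cultured cortical neurons. Across the cells of a group, Pearson's r between both numbers was 0.92 in 86 astrocytes, 0.92 in 8 cultured hippocampal neurons, 0.51 in 14 CA1 and 0.89 in 22 cortical slice neurons, and 0.98 in 13 cultured cortical neurons; the members are among the genes counted and the cells share their library preparation, so these are descriptions. Among cells with 1000 to 4000 genes detected, the median number of members was 23 in 27 astrocytes, 9 in 5 CA3, 9.5 in 12 CA1 and 13 in 15 cortical slice neurons, and 7.5 in 6 cultured cortical neurons. Medians of all genes detected still differed within that range, at 2980, 2150, 1985, 2519 and 1407 in the same order. No cultured hippocampal neuron fell in that range. Genes detected per cell and the group cannot be told apart in the groups that do not overlap.

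**Figure D2:**
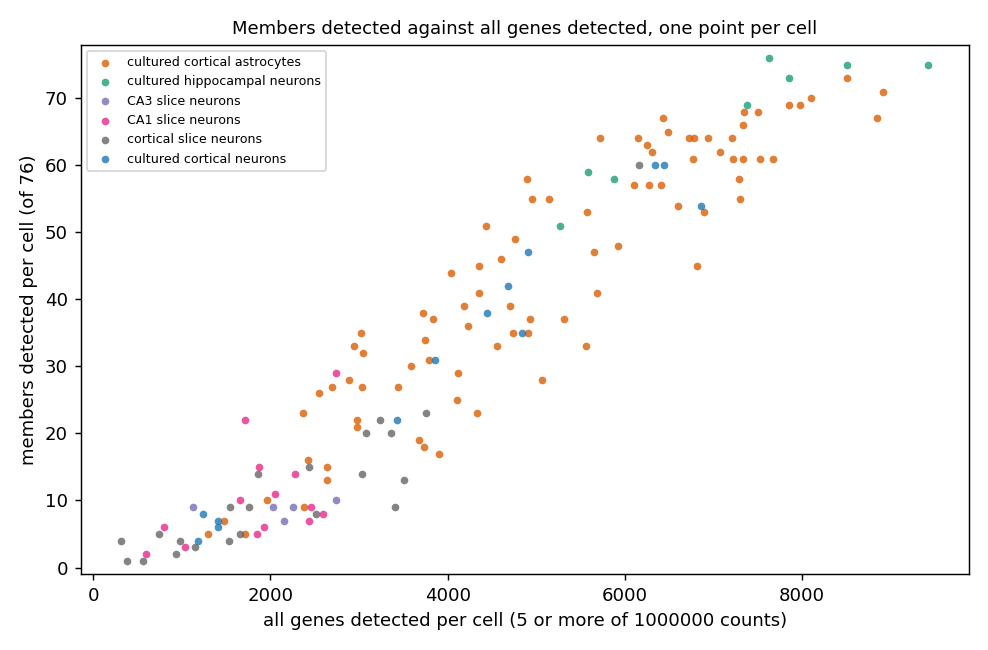
Number of members detected (vertical axis, of 76) against number of all genes detected (horizontal axis) at 1000000 counts, 1 point per cell, coloured by group. Cells of the groups lie along a common rising band, with slice cells mostly below 4000 genes and the 8 cultured hippocampal neurons at 5272 genes or more.

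The members detected most widely, by the mean of the shares of cells in the 6 groups, were Mrpl20, Mrps14, Mrpl12, Mrpl42, Mrpl27, Mrpl33, Mrpl30 and Mrps6. Mrpl20 encodes a large subunit protein with a bacterial counterpart and was detected in 69 of 86 astrocytes, 8 of 8 cultured hippocampal, 3 of 5 CA3, 3 of 14 CA1 and 8 of 22 cortical slice neurons, and 8 of 13 cultured cortical neurons. Its level was 253 CPM in astrocytes, 137 in cultured hippocampal neurons, 211 in CA3, 41.8 in CA1 and 528 in cortical slice neurons, and 86.7 in cultured cortical neurons. Of its counts in cortical slice neurons, 85.8% came from 1 cell, with 6457 CPM, while the median cell had 0.72 CPM. Mrps14, a small subunit protein gene, was detected in 73 of 86 astrocytes, 8 of 8 cultured hippocampal, 3 of 5 CA3, 3 of 14 CA1 and 5 of 22 cortical slice neurons, and 7 of 13 cultured cortical neurons. Mrpl12, which encodes the stalk protein that in bacteria recruits translation factors, was detected in 57 of 86 astrocytes, 8 of 8 cultured hippocampal, 1 of 5 CA3, 5 of 14 CA1 and 4 of 22 cortical slice neurons, and 10 of 13 cultured cortical neurons. Mrpl10, whose product anchors the stalk, was detected in 57 of 86 astrocytes, 8 of 8 cultured hippocampal, 1 of 5 CA3, 2 of 14 CA1 and 2 of 22 cortical slice neurons, and 6 of 13 cultured cortical neurons.

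The 8 members detected in the fewest cells were Mrps18b, Mrpl23, Mrps36, Mrps5, Mrps2, Mrps27, Mrps31 and Mrpl22. Mrps18b, the rarest, was detected in 7 of 86 astrocytes (8.14%, 95% Clopper-Pearson interval 3.34 to 16.1%; such intervals take the cells as independent, which the labels do not show), 1 of 8 cultured hippocampal, 0 of 5 CA3, 0 of 14 CA1 and 1 of 22 cortical slice neurons, and 0 of 13 cultured cortical neurons. Its paralogues stood apart from it in the same cells. Mrps18c, likewise of the small subunit, was detected in 54 of 86 astrocytes and 5 of 13 cultured cortical neurons. Mrps18a, of the large subunit, was detected in 49 of 86 astrocytes and 7 of 13 cultured cortical neurons. A transcript of another gene matches Mrps18b over 417 bases at 95% identity or more, and one matches Mrps18c over 277 bases. Reads of either could have been split or discarded in counting, which was not tested. Mrpl23, whose product lines the exit of the peptide tunnel, was detected in 12 of 86 astrocytes, 5 of 8 cultured hippocampal neurons and 3 of 13 cultured cortical neurons, and in none of the 5 CA3, 14 CA1 and 22 cortical slice neurons, which allows shares of up to 52.2%, 23.2% and 15.4% (upper Clopper-Pearson bounds); a pseudogene copy, Mrpl23-ps1, matches it too. Mrpl45, whose product lies at the same exit and ties the ribosome to the inner membrane, was detected in 58 of 86 astrocytes, 7 of 8 cultured hippocampal neurons and 4 of 13 cultured cortical neurons. Mrps12, of the decoding centre, was detected in 56 of 86 astrocytes, 8 of 8 cultured hippocampal neurons and 8 of 13 cultured cortical neurons. Mrpl3, a core large subunit protein gene, was detected in 52 of 86 astrocytes, 7 of 8 cultured hippocampal neurons and 7 of 13 cultured cortical neurons, and Mrps5, a core small subunit protein gene, in 27, 5 and 1 of the same cells. Ict1, the peptidyl-tRNA hydrolase of the large subunit that lies outside the symbol rule, was detected in 46 of 86 astrocytes, 5 of 8 cultured hippocampal neurons and 2 of 13 cultured cortical neurons.

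In astrocytes 59 of the 76 members were detected in at least 50% of the cells, against 75 in cultured hippocampal neurons, 2 in CA3 and none in CA1 and cortical slice neurons, and 25 in cultured cortical neurons. What share of all genes passed this cut was not computed, so these counts alone do not set the members apart. The median member was detected in 57.6% of astrocytes, 87.5% of cultured hippocampal, 0% of CA3, 14.3% of CA1 and 13.6% of cortical slice neurons, and 38.5% of cultured cortical neurons. Over all genes with a count in the group these medians were 8.14%, 37.5%, 20%, 7.14%, 4.55% and 15.4% in the same order. The members' median was the higher in every group but CA3. In CA3 the medians are not alike, since only 48 of the 76 members had a count there and those without one were included. Shares did not differ much by the class of protein: in astrocytes the median share was 59.3% for large and 55.2% for small subunit members, and 62.8% for members with a bacterial counterpart and 53.5% for mitochondria-specific ones. In cultured cortical neurons these medians were 46.2%, 38.5%, 46.2% and 38.5%. Exon length did not order the shares strongly, with Spearman's rho across the 76 members between -0.27 in CA1 and 0.13 in CA3.

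**Figure D3:**
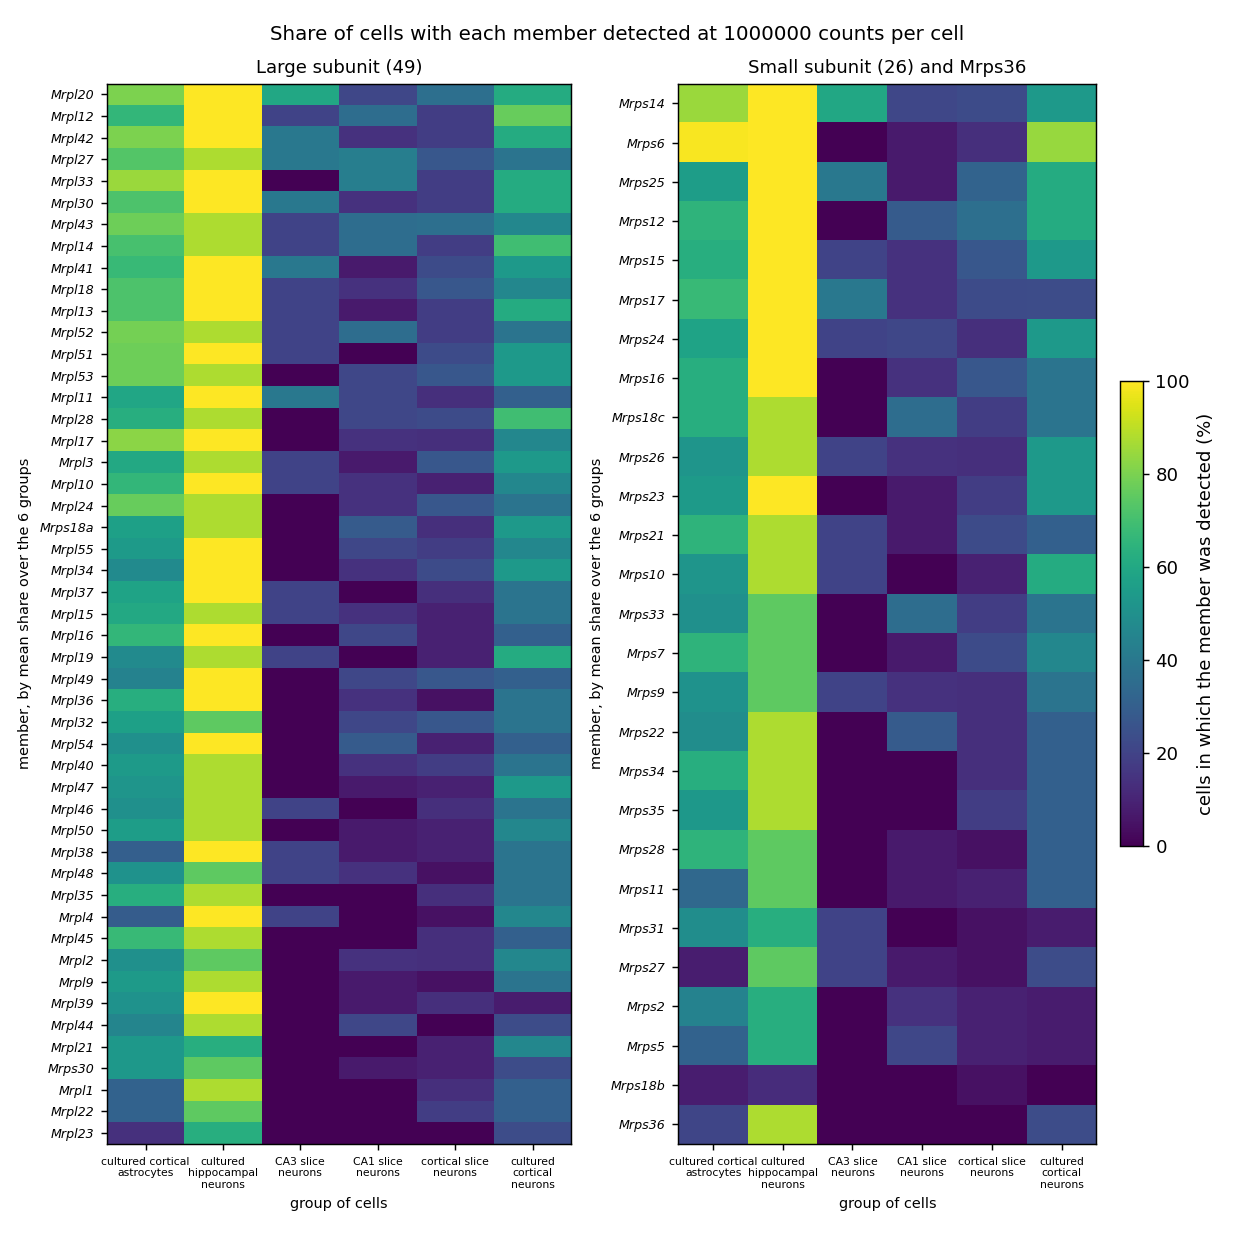
Share of cells (colour, 0 to 100%) in which each member was detected at 1000000 counts, by group (columns), for large subunit members (left) and for small subunit members with Mrps36 (right), ordered by the mean share over the 6 groups. Mrps6 reaches 98.8% in astrocytes and Mrps18b stays at or below 12.5% in every group.

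Mrps6, a small subunit protein gene at chr16:92058270-92112227 (+ strand, GENCODE M21, GRCm38), stood apart from the other members in astrocytes. Its level was 1255 CPM in astrocytes, 274 in cultured hippocampal neurons, 0 in CA3, 0.22 in CA1 and 259.6 in cortical slice neurons, and 302 in cultured cortical neurons. Per cell it ran between 3.39 and 4131 CPM in astrocytes (median 1060), between 171 and 546 CPM in cultured hippocampal neurons (median 238), between 0 and 6.23 CPM in CA1 and between 0 and 1741 CPM in cortical slice neurons (medians 0), and between 0 and 1531 CPM in cultured cortical neurons (median 209). It was detected in 85 of 86 astrocytes, 8 of 8 cultured hippocampal, 0 of 5 CA3, 1 of 14 CA1 and 3 of 22 cortical slice neurons, and 11 of 13 cultured cortical neurons. Below the lowest astrocyte lay 0 of 8 cultured hippocampal neurons, 5 of 5 CA3, 14 of 15 CA1 and 18 of 22 cortical slice neurons, and 2 of 13 cultured cortical neurons. Per kilobase of annotated exon it was the highest of the 76 members in astrocytes, at 818 CPM per kb, followed by Mrpl18 at 156 and Mrpl20 at 152, with a median member at 20.95. It led the members on that scale in 58 of 86 astrocytes. In cultured cortical neurons it was highest at 197 CPM per kb, followed by Mrpl55 at 172, and in cultured hippocampal neurons Mrpl41 led with 215 CPM per kb. Mrps6 made up 19.9% of all member counts in astrocytes, 4.77% in cultured hippocampal, 0.00547% in CA1 and 7.09% in cortical slice neurons, and 6.02% in cultured cortical neurons. Without it the summed member level was 5063 CPM in astrocytes, 5472 in cultured hippocampal neurons, 5868 in CA3, 3995 in CA1 and 3403 in cortical slice neurons, and 4719 in cultured cortical neurons, so that astrocytes stood below CA3 and cultured hippocampal neurons.

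Slc5a3, which shares its start with Mrps6, was at 961 CPM in astrocytes, 43.3 in cultured hippocampal neurons, 0 in CA3, 2.94 in CA1 and 17.5 in cortical slice neurons, and 180 in cultured cortical neurons. Both genes were detected in 77 of 86 astrocytes, Mrps6 alone in 8 and Slc5a3 alone in 1. Within the 86 astrocytes their log2 levels had a Pearson's r of 0.02 and a Spearman's rho of -0.10. Exons of Mrps6 overlap those of Slc5a3 and of a predicted gene on the same strand, by 464 bases summed over both genes, so that bases shared with both count for each. Reads there may not have been given to any of these genes, and no source used here states whether counting used strand. The 3 cultured cortical neurons with more astrocyte than neuron markers had 366, 766 and 1531 CPM of Mrps6, and the other 10 between 0 and 406 CPM; the part of astrocyte RNA in these values was not tested. By days in culture, the median Mrps6 level of astrocytes was 483 CPM at 7 days (3 cells, the only ones of strain C57/BL6), 1060 at 12 days, 1281 at 14 days and 1009 at 15 days.

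**Figure D4:**
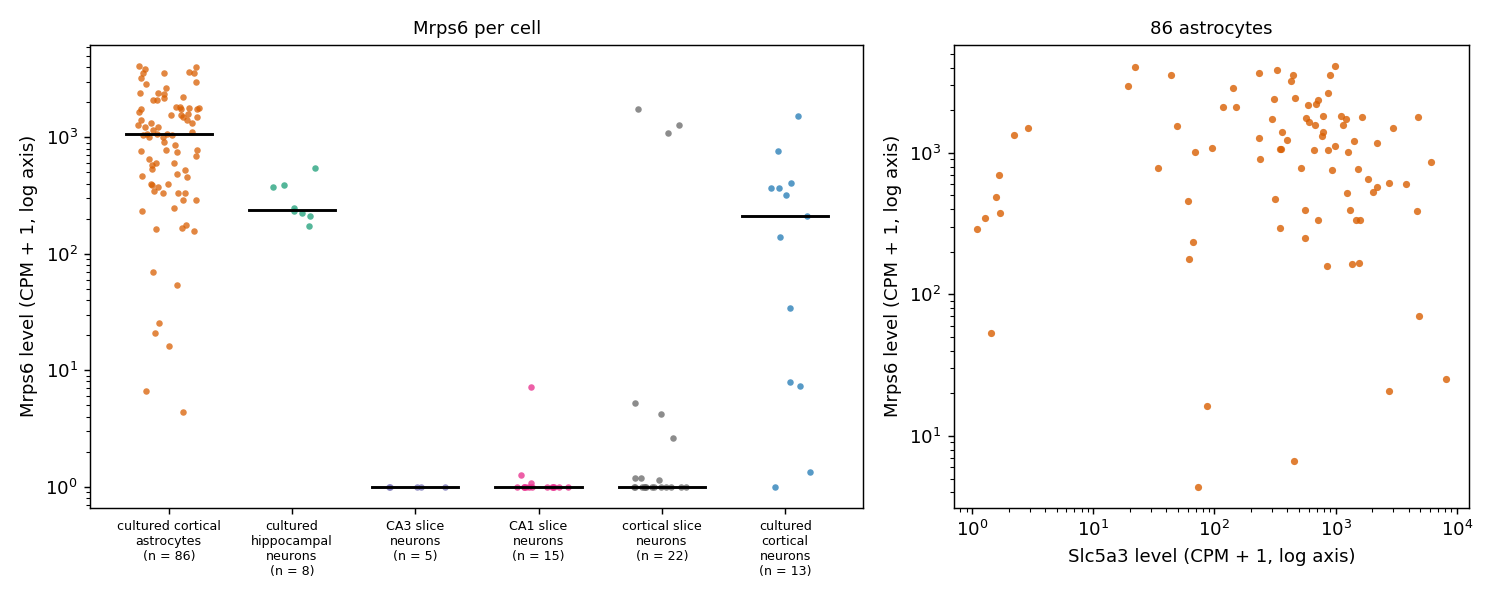
Left, Mrps6 level per cell (CPM + 1, log axis) by group, with black lines at the medians. Right, Mrps6 against Slc5a3 in the 86 astrocytes (both CPM + 1, log axes), where the points form no line (r of 0.02).

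Large subunit members held most of the member counts in every group. They are also most of the members, 49 against 26 of the small subunit. Their share was 57.7% in astrocytes, 68.8% in cultured hippocampal neurons, 62.9% in CA3, 80.6% in CA1 and 61.9% in cortical slice neurons, and 70.5% in cultured cortical neurons. With Mrps6 left out, the median large subunit share per cell was 72.2% in astrocytes, 71.8% in cultured hippocampal, 96.9% in CA3, 77.98% in CA1 and 65.8% in cortical slice neurons, and 76.2% in cultured cortical neurons. Across single cells these shares ran between 27.98 and 99.7% in astrocytes, between 67.5 and 76.7% in cultured hippocampal neurons and between 22 and 99.9% in cultured cortical neurons. In slice cells they ran between 47.5 and 98.6% in CA3, between 19.4 and 99.97% in CA1 and between 3.25 and 99.8% in cortical neurons.

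In slice cells a few members held most of the counts. Counts over all genes were more concentrated there too. A cell's 50 highest genes took up 31.4% of counts in the median CA3 cell, 35.1% in CA1 and 27.6% in cortical slice neurons. In the median cultured cell this share was 18.2% for astrocytes, 16.9% for hippocampal and 18.8% for cortical neurons. Whether members were more concentrated than other genes was not tested. The member with the most counts in a cell held a median of 22.4% of that cell's member counts in astrocytes, 5.89% in cultured hippocampal neurons, 39.6% in CA3, 36.2% in CA1 and 42.97% in cortical slice neurons, and 16.1% in cultured cortical neurons. Expressed as an effective number of members, the inverse of the summed squared shares, the medians were 10.4, 41.7, 3.91, 4.62, 3.70 and 11.4 in the same order of groups. Each of the 8 cultured hippocampal neurons was led by a different member. The 5 CA3 cells were led by Mrpl18 (81.9% of its member counts), Mrps9 (37.7%), Mrpl20 (35.9%), Mrpl3 (39.6%) and again Mrpl20 (40.4%). For most members the counts of a slice group came from 1 cell: the median member had 13.8% of its counts from its highest cell in astrocytes, 26.9% in cultured hippocampal neurons, 99.99% in CA3, 80% in CA1 and 70.5% in cortical slice neurons, and 47.3% in cultured cortical neurons. Of the members detected in either cell of a pair, a median of 39.3% were detected in both cells in astrocytes, 77.5% in cultured hippocampal neurons, 6.67% in CA3, 7.41% in CA1 and 4.92% in cortical slice neurons, and 16.5% in cultured cortical neurons. Large and small subunit levels of a cell, without Mrps6, had a Pearson's r of 0.29 over 86 astrocytes, 0.13 over 8 cultured hippocampal, 0.36 over 15 CA1 and 0.13 over 22 cortical slice neurons, and 0.12 over 13 cultured cortical neurons (log2 scale). Spearman's rho was 0.41, 0.29, 0.50, 0.24 and 0.47 in the same order. With the summed level of 82 respiratory chain genes, that of the members had an r of 0.53, 0.68, 0.09, 0.44 and 0.08 in the same 5 groups, and a rho of 0.61, 0.33, 0.36, 0.35 and 0.21. Among the 8 cultured hippocampal neurons, 1 stood far above the others in respiratory chain genes, at 132272 CPM. With the summed level of 76 cytosolic ribosomal protein genes, r was 0.45, 0.39, 0.08, 0.16 and -0.14, and rho 0.52, 0.55, 0.23, -0.0017 and -0.27.

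Groups were compared by the log2 ratio of their levels after adding 1 CPM, over genes with 10 counts or more summed over the pair of groups and present in 3 cells or more. In cultured cortical astrocytes against cultured cortical neurons, the members spread to both sides like other genes: 23 of 76 members were at least 2-fold higher and 12 at least 2-fold lower, against 29.8% and 19.9% of all 17473 genes measured. The median log2 ratio was 0.17 (quartiles -0.71 and 1.11), against 0.08 over all genes; 44 members were higher and 32 lower, against 61.9% and 38.1%. With edgeR TMM scaling the median was -0.054, with 37 members higher and 39 lower. In shares of cells, 63 members were detected in a larger share of astrocytes, and 13 in a smaller share, against 62.1% and 24.2% of all genes, with a median difference of 16.2 percentage points, against 2.33 over all genes. Mrps6 was 4.15-fold higher in summed level (log2 ratio 2.05). As higher, 18 members met the rule for naming, which was applied to members alone and so has no share of all genes beside it. The 10 named were Mrps17, Mrpl39, Mrps31, Mrps2, Mrpl16, Mrps28, Mrps34, Mrps30, Mrpl36 and Mrps18c, with log2 ratios between 1.14 and 5.74.

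Mrps2, a small subunit protein gene with a bacterial counterpart, had the largest of these ratios. It ran between 0 and 1822 CPM in astrocytes (median 1.8; 38 of 86 cells detected), against 0 to 2.05 CPM in cultured cortical neurons (median 0; 1 of 13 cells), so that a large part of the astrocytes overlapped with the neurons. Mrps17, another small subunit protein gene, ran between 0 and 1027 CPM in astrocytes (median 27.8; 58 of 86 cells), against 0 to 216 CPM in cultured cortical neurons (median 0.12; 3 of 13 cells), with a log2 ratio of 1.88. Mrps31 was at 51.3 CPM in astrocytes and 5.33 in cultured cortical neurons, a log2 ratio of 3.05. Lower in astrocytes were Mrpl4 (log2 ratio -3.37), Mrps27 (-2.28), which encodes an RNA-binding protein of the small subunit, and Mrps26 (-1.04), the 3 members that met the rule. Mrpl4 was at 8.96 CPM in astrocytes and 102 CPM in cultured cortical neurons, where 82.5% of its counts came from 1 cell. Without the 3 neurons with more astrocyte than neuron markers, the median log2 ratio was 0.76 and the median difference in shares 23.7 points; without 1 of them alone, neuron 6, the median log2 ratio was 0.63. Among cells of 15 days in culture, 8 astrocytes and 3 neurons, the median difference in shares was -12.5 points, against 0 over all genes; 2 of those 3 neurons had more astrocyte than neuron markers, and all 3 were basecalled with bcl2fastq, so that version and group cannot be told apart there. With libraries basecalled by bcl2fastq2 alone, which hold all astrocytes and 7 neurons, the median log2 ratio was 0.56.

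In cultured hippocampal against cultured cortical neurons, all 76 members were detected in a larger share of the hippocampal cells, against 76.9% of the 13485 genes measured. The median difference was 46.2 points, against 23.1 over all genes, and the median share of cells was 87.5% in hippocampal and 38.5% in cortical cultures. By size, 21 members were at least 2-fold higher and 8 at least 2-fold lower, against 30.3% and 25.3% of all genes. The median log2 ratio was 0.58 (quartiles -0.38 and 1.12), against 0.15 over all genes. In level 52 members were higher and 24 lower, against 53.9% and 46.1% of all genes. With edgeR TMM scaling, which moved the median of all genes to -0.54, 22 were higher and 54 lower, and with DESeq2 size factors, with all genes at -0.11, 40 were higher and 36 lower. Relative to the median of all genes, the members' median was 0.44, and 0.15 with TMM and 0.18 with DESeq2 scaling. Mitochondria-specific members had a median of 0.74 (25 of 29 higher) and members with a bacterial counterpart one of 0.28 (26 of 46 higher). The summed level of the 82 respiratory chain genes was 49875 CPM in hippocampal and 26981 CPM in cortical cultures, and that of the 76 cytosolic ribosomal protein genes 17131 and 46302 CPM.

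Mrpl39, of the large subunit, had the largest difference in share. It ran between 27.9 and 104 CPM in the 8 hippocampal neurons (median 77.6), all detected, against 0 to 206 CPM in cultured cortical neurons (median 0), of which 1 of 13 was detected and held 98.2% of the group's counts; the log2 ratio was 1.76. Mrps17 ran between 80 and 194 CPM in hippocampal neurons (8 of 8 cells), against 0 to 216 CPM in cortical ones (3 of 13 cells), a log2 ratio of 2.37. In both genes the ranges overlapped, and the highest cortical cell lay above the hippocampal maximum. The other members named by the rule were Mrpl11, Mrpl16, Mrps36, Mrpl36, Mrps16, Mrpl45, Mrps2 and Mrps31, with log2 ratios between 1.36 and 5.12. No lower member met the rule, since no share was lower. Mrpl22, chosen after its values were seen, was at 31.4 CPM in hippocampal neurons (6 of 8 cells) and 141 CPM in cortical neurons (4 of 13 cells). Strain, culture age and region cannot be told apart over all cells. Of 12 inhibitory neuron markers, 7 to 9 were detected per hippocampal neuron, against 0 to 8 (median 3) per cortical neuron. The summed level of these markers ran between 9487 and 23706 CPM, against 0.60 to 10066 CPM (median 575). The part of this difference in the members' values was not tested. With the 3 cortical neurons of 15 days alone, the median difference in shares was 20.8 points, and the median log2 ratio was 0.58, against 0.74 over all genes; these are the same 3 neurons, all basecalled with bcl2fastq, whereas all 8 hippocampal neurons were basecalled with bcl2fastq2. With bcl2fastq2 libraries alone (8 and 7 cells) these values were 42.9 points and 0.69.

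In cortical neurons from slices against those from culture, 35 of 76 members were at least 2-fold lower and 8 at least 2-fold higher, against 37% and 24.7% of the 13741 genes measured. The median log2 ratio was -0.90 (quartiles -1.94 and 0.26), against -0.24 over all genes; 23 members were higher and 53 lower, against 44.2% and 55.8% of all genes. A lower share of slice cells was seen for 72 members, against 71.1% of all genes, with a median difference of -25 points, against -9.44. Among cells with 1000 to 4000 genes detected, 15 from slices and 6 from culture, the median difference was 3.33 points, against 6.67 over all genes. These slice and cultured cells were not matched within that range, with medians of 2519 and 1407 genes detected. The rule named as lower Mrpl12, Mrpl19, Mrps10, Mrpl28, Mrpl13, Mrpl30, Mrpl4, Mrps18a, Mrps26 and Mrpl10, 10 of 29 that met it, with log2 ratios between -5.18 and -1.10. What share of all genes would meet the rule was not computed. Mrpl12 ran between 0 and 305 CPM in slice cells (median 0), against 0 to 319 CPM in cultured cells (median 38.3), a log2 ratio of -2.75. Its stalk partner Mrpl10 was at 4.96 CPM in slice and 38.3 CPM in cultured cells, a log2 ratio of -2.72. Mrpl4 was at 1.85 CPM in slice and 102 CPM in cultured cells. The ranges overlapped in all 3. Mrps2 alone met the rule as higher, at 16.5 CPM in slice and 0.28 CPM in cultured cells, with 2 of 22 and 1 of 13 cells detected. Of slice cells 3 of 22 and of cultured cells 11 of 13 had Mrps6 detected, yet its log2 ratio was -0.22, since the 3 slice cells held between 1092 and 1741 CPM. Within basecalling versions the median log2 ratio was -1.69 for bcl2fastq2 (16 and 7 cells) and -0.38 for the older bcl2fastq (8 and 6 cells), and the median differences in shares were -32.1 and -12.5 points. Without the 9 slice cells with 3 or more microglia markers the median log2 ratio was -1.80; without the cells with more astrocyte than neuron markers the median difference in shares was -14.2 points.

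In CA1 against cortical slice neurons, 23 of 75 members measured were at least 2-fold higher and 35 at least 2-fold lower, against 22.6% and 39.8% of the 12666 genes measured. The median log2 ratio was -0.43 (quartiles -2.36 and 1.25), against -0.37 over all genes, and 32 members were higher and 43 lower, against 38.9% and 61.1%. The share of cells was larger for 28 members and smaller for 46, against 34.8% and 55.1%, with a median difference of -3.90 points, against -1.95. Within basecalling versions the median log2 ratio was 0.10 for bcl2fastq2 (11 and 16 cells) and -3.68 for bcl2fastq (5 and 8 cells), so the direction was not shared. It was -1.11 without CA1 cell 14 and -0.10 without cortical slice cell 13. Higher members named were Mrpl54, Mrpl12, Mrpl14, Mrpl52, Mrps18c, Mrps18a, Mrps22, Mrpl16, Mrpl36 and Mrpl11, with log2 ratios between 1.91 and 4.69, each detected in 2 to 5 of 14 CA1 cells. Mrpl12 was at 276 CPM in CA1 and 19.5 CPM in cortical slice neurons, a log2 ratio of 3.75, and 82.7% of its CA1 counts came from 1 cell. Lower members named were Mrps25, Mrpl51, Mrps35, Mrpl41, Mrps7, Mrps21, Mrpl20, Mrpl35, Mrpl37 and Mrpl45, with log2 ratios between -7.94 and -1.09. Mrps35 was at 0.31 CPM in CA1 (0 of 14 cells detected) and 321 CPM in cortical slice neurons (4 of 22 cells). Mrps6 was at 0.22 CPM in CA1 and 259.6 CPM in cortical slice neurons, a log2 ratio of -7.74, with 3 cells behind the cortical value.

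In CA3 against CA1 slice neurons, 41 of 69 members measured were at least 2-fold lower and 19 at least 2-fold higher, against 46.2% and 24.8% of the 9378 genes measured. The median log2 ratio was -2.62 (quartiles -4.99 and 1.29), against -0.70 over all genes, and -2.69 with the 23 members that had no count in CA3 set at a floor of 3 counts over the group. In level 22 members were higher and 47 lower, against 35.6% and 64.4%, and in share of cells 27 were higher and 38 lower, against 43% and 47.6%. Leaving out each CA3 cell in turn gave medians between -2.80 and -2.49, and leaving out CA1 cell 14 gave -1.41. With bcl2fastq2 libraries alone, 4 CA3 and 11 CA1 cells, the median was -3.77 over 49 members; bcl2fastq libraries held 1 CA3 cell, too few for a value. Without the CA1 cells with 3 or more microglia markers it was -1.07 over 51 members. Higher members named were Mrpl20, Mrps14, Mrpl41, Mrps25, Mrpl30, Mrps17, Mrpl19, Mrpl46, Mrpl51 and Mrps10, with log2 ratios between 2.31 and 7.87. Mrpl20 had 134, 0.20, 891, 0 and 1274 CPM in the 5 CA3 cells, against 0 to 448 CPM in CA1 (median 0). Mrps14 had 0, 0, 28.8, 548 and 89.8 CPM, against 0 to 159 CPM in CA1 (median 0). Mrpl46 had 954 CPM in the fourth CA3 cell and none in the other 4, against 0.13 CPM in CA1. Single cells set several of these directions: without the fourth CA3 cell the log2 ratios were -0.33 for Mrps14, -0.17 for Mrpl46 and -0.14 for Mrps10, and without the second it was -0.84 for Mrps17. Lower members named were Mrpl33, Mrps18c, Mrps33, Mrpl54, Mrps12, Mrps18a, Mrps22, Mrpl16, Mrpl28 and Mrpl32. No CA3 cell had a count of Mrpl33, Mrps18c, Mrpl54, Mrps12, Mrps22 or Mrpl32. Mrpl33, a large subunit protein gene detected in 6 of 14 CA1 cells, had a log2 ratio of -5.32. Amplified reads cannot be taken as separate molecules, so its absence from 5 cells sets no minimum fold. With 5 cells taken as independent, a share of 0 allows up to 52.2%.

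**Figure D5:**
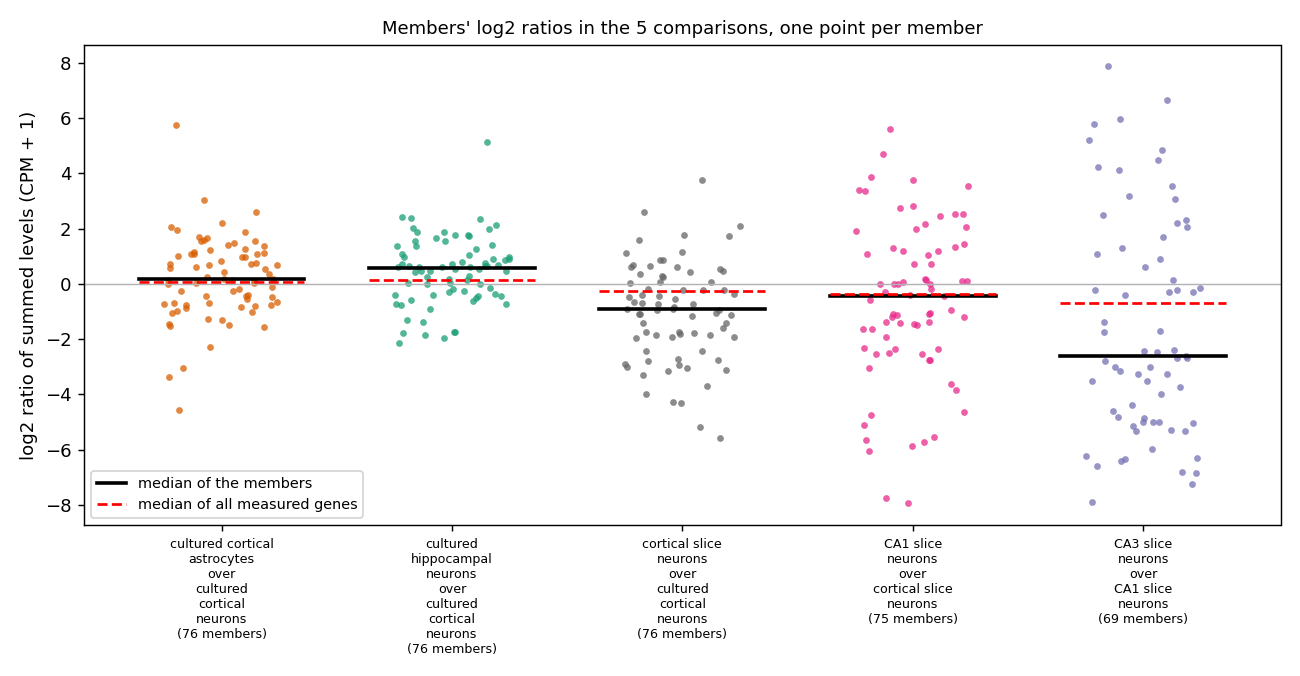
Log2 ratio of summed levels (CPM + 1) of each measured member in the 5 comparisons, 1 point per member; black lines are medians of the members and dashed red lines medians of all genes measured. The medians of the members are 0.17, 0.58, -0.90, -0.43 and -2.62, and the spread of the points widens in the comparisons among slice cells.

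Comparisons that share a group, such as the 3 set against cultured cortical neurons, are not independent of each other. Other genes of mitochondrial translation were taken from lists by function. Of 17 translation factors measured, 14 were detected in a larger share of astrocytes than of cultured cortical neurons, 16 in a larger share of cultured hippocampal neurons and 14 in a smaller share of cortical slice neurons. Of the mitoribosome assembly factors these numbers were 14 of 24, 22 of 23 and 20 of 23, and of the mitochondrial aminoacyl-tRNA synthetases 17 of 22, 21 of 21 and 17 of 21. Gfm1, which encodes a mitochondrial elongation factor, was at 46.8 CPM in astrocytes (41 of 86 cells detected) and 7.69 CPM in cultured cortical neurons (2 of 13). Tufm, the elongation factor that delivers tRNA, was at 6.93 CPM in cortical slice neurons (2 of 22 cells) and 142 CPM in cultured cortical neurons (8 of 13). At the other end of the factors, Taco1, a translational activator of a cytochrome oxidase subunit, was at 2.14 CPM in astrocytes (9 of 86 cells) and 0.90 CPM in cultured cortical neurons (2 of 13), and Gfm2, a ribosome recycling factor, at 53.4 CPM in cortical slice neurons (6 of 22) and 72.8 CPM in cultured cortical neurons (2 of 13). Of 6 mitoribosome proteins with other names, 4 were detected in a larger share of astrocytes, 6 in a larger share of cultured hippocampal neurons and 5 in a smaller share of cortical slice neurons, where 4 were nevertheless higher in level (median log2 ratio 0.35). Among them, Aurkaip1 was at 150 CPM in astrocytes (66 of 86 cells) and 23.5 CPM in cultured cortical neurons (5 of 13), and Dap3 at 31.5 CPM in cortical slice neurons (5 of 22) and 68.6 CPM in cultured cortical neurons (9 of 13). Gadd45gip1 was at 9.60 CPM in astrocytes (26 of 86) and 35.3 CPM in cultured cortical neurons (5 of 13), and Ict1 at 14.5 CPM in cortical slice neurons (4 of 22) and 10.4 CPM in cultured cortical neurons (2 of 13). The background shares of all genes in these directions were 62.1%, 76.9% and 71.1%.

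Culture age moved with the members in cortical neurons. The median number detected was 8 of 76 at 6 days (3 cells), 7 at 10 days (3 cells), 44.5 at 13 days (4 cells) and 47 at 15 days (3 cells), beside medians of 1239, 1408, 5594 and 4906 genes detected in all. Their summed level had medians of 3232, 1607, 5404 and 5818 CPM at the same ages. In astrocytes the median number was 53 at 7 days (3 cells), 42.5 at 12 days (70 cells), 61 at 14 days (5 cells) and 40.5 at 15 days (8 cells). The 3 cultured cortical neurons with more astrocyte than neuron markers, all of 13 or 15 days, had 47 to 60 members detected, and the other 10 had 4 to 60; the part of those markers in the difference was not tested.

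Counting is uncertain for some members. Exons of 8 members overlap another gene on the same strand by at least 20 bases, those of 25 members overlap a gene on the opposite strand, and transcripts of 20 members match a transcript of another gene over at least 250 bases at 95% identity or more. Of those named, Mrpl22, Mrpl23, Mrpl27, Mrpl30, Mrpl32, Mrpl41, Mrpl42, Mrpl51, Mrps5, Mrps10, Mrps16, Mrps18b, Mrps18c, Mrps21, Mrps25, Mrps26, Mrps33 and Mrps36 have such copies. Mrpl3, Mrpl33, Mrpl51, Mrps6, Mrps18c and Mrps34 share exon bases with a gene on the same strand. Mrpl46 and Mrps11, both members, overlap each other on opposite strands by 173 bases.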

How the data were processed

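Polyadenylated RNA of single cells was amplified in 3 rounds and sequenced as stranded Illumina libraries, per the labels' protocols. Reads were basecalled with bcl2fastq 1.8.4 or bcl2fastq2 2.17, per the labels, and aligned to the mouse genome (mm10) and counted per gene with STAR and HTSeq, per the submitters' processing notes. For STAR and HTSeq the version, strand setting and annotation were not given in the sources used here. What the authors deposited was a table of raw counts for each gene and library.

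From these counts, 9 pairs of libraries were summed as 1 cell each, 8 by their titles and 1 from its counts, which left 149 cells. Cells with libraries under both basecalling versions enter each version's values. The 2 hippocampal libraries of title letter D share the rest of their titles with 2 of letter S. Each was counted as a cell, and the labels used here do not say whether such a pair is 1 cell. Those of letter D had 51 and 59 members detected. Levels are CPM of a group's summed counts, and log2 ratios were taken after adding 1 CPM. Each cell was thinned to 1000000 counts (seed 7) and detection set at 5 counts, with Clopper-Pearson intervals. The log2 ratio of summed levels was tried on simulated counts of cortical slice and cultured cortical neurons. Detection shares and the naming of members were not tried on simulated data. Up to 10 members per direction were named by size of the difference in share, provided a group reached 10 CPM and the log2 ratios of summed and of mean cell CPM both passed 1 in size in the direction of the share; others are the 8 members detected most and least and genes fixed by role. The members and lists were chosen with earlier results of these data known. Gene models came from GENCODE M21, copies from blastn 2.17.0 and start regions from RefSeq (GRCm38.p6). Python 3.11.15 with pandas 2.3.3, numpy 2.4.6 and scipy 1.17.1 was used, with edgeR 4.0.16 and DESeq2 1.42.0 under R 4.3.3 for scaling factors alone. Alternatives in scaling, weighting of cells, pseudocount, filters, detection and cells included were tried.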

Additional observations from a re-analysis of the deposited data

Results flagged for a closer look

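In 18 sets of values, each a measure in a group of 4 to 10 cells, 3 held a cell far from the others of its group; chance alone sets a cell apart in about 1 in 20 such sets. One cultured hippocampal neuron had 132272 CPM of the respiratory chain genes, against 33012 to 60941 CPM in the other 7. Its group's summed level of these genes, 49875 CPM, stands beside the members above. In CA3, the cell led by Mrpl18 had 81.9% of its member counts in that member, against 35.9 to 40.4% for the leading member of the other 4 cells. The same cell had an effective number of 1.48 members, against 3.34 to 4.05 in the other 4.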

How the results depend on the processing

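No paired analysis was possible because the cells carry no replicate numbers shared between groups and no test was made. Of 299 summary values recomputed, 265 moved by less than the spread used to judge them, and 6 were of opposite sign to the value reported. Counts of members and summed levels are among the 299 and cannot change sign. Only median log2 ratios and median differences in shares could. The spread was an interval of the median over members for these medians, a fixed factor for counts and the standard deviation over cells for summed levels. Between astrocytes and cultured cortical neurons, the median log2 ratio was 1.88 with the median of the cells' CPM, -0.054 with edgeR TMM scaling and 0.76 without neurons with more astrocyte than neuron markers, and the median difference in shares was 23.7 points without those neurons and -12.5 at 15 days. Between cultured hippocampal and cortical neurons, the median log2 ratio was 0.80 with the mean and 4.24 with the median of the cells' CPM, -0.40 with edgeR TMM scaling (22 members higher), 0.070 with DESeq2 scaling and 0.86 without neurons with more astrocyte than neuron markers. The median difference in shares there was 37.5 points with no thinning, 55 without those neurons and 20.8 at 15 days. Between cortical slice and cultured neurons, the median log2 ratio was -1.69 and -0.38 with bcl2fastq2 and bcl2fastq libraries alone and -1.80 without slice cells with 3 or more microglia markers, and 1 member was higher by the median of the cells' CPM. The median difference in shares there was -31.1 points with no thinning, -32.1 and -12.5 by basecalling version, -14.2 without neurons with more astrocyte than neuron markers and 3.33 among cells with 1000 to 4000 genes detected. Between CA1 and cortical slice neurons, the median log2 ratio was 0.10 and -3.68 by basecalling version (12 members higher with bcl2fastq libraries), 5 members were higher by the median of the cells' CPM, and the median differences in shares were 3.75 and -17.5 points by version. Between CA3 and CA1, the median log2 ratio was 0 by the median of the cells' CPM (8 members higher) and -3.77 with bcl2fastq2 libraries (14 members higher), and 12 members were higher with at least 100 counts and 5 cells. The summed level of hippocampal cultures was 6899.05 CPM with totals without the 50 highest genes of each cell. The cause was not tested in any of these.

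Named members changed sign as follows, on the log2 scale. For astrocytes, Mrps26 was at 0.17 and Mrps27 at 0.044 by the median of the cells' CPM, and at 15 days Mrpl36 was at -0.45, Mrps18c at -0.039, Mrps26 at 3.79 and Mrps28 at -1.18. For cultured hippocampal neurons at 15 days, Mrpl16 was at -0.18, Mrpl36 at -0.28, Mrpl39 at -0.058 and Mrps31 at -0.32. For cortical slice neurons, Mrpl13 was at 0.56 and Mrps2 at -0.52 with bcl2fastq2 libraries, and Mrpl30 at 1.02, Mrps10 at 0.74 and Mrps26 at 3.17 with bcl2fastq libraries. For CA1 with bcl2fastq libraries, Mrpl11 was at -5.57, Mrpl16 at -3.54, Mrpl36 at -3.30, Mrpl54 at -0.073 and Mrps22 at -6.56. Without slice cells with 3 or more microglia markers, Mrpl11 was at -5.06, Mrpl14 at -5.30, Mrpl52 at -2.06, Mrps18c at -0.21, Mrps22 at -0.95 and Mrps7 at 1.06. Mrps21 was at 0.14 without neurons with more astrocyte than neuron markers, and Mrps22 at -1.35 without the deepest cell of each group. For CA3, Mrps17 was at -1.12 without the deepest cells, -0.92 without the cells highest in members and between -0.84 and 5.29 as each CA3 cell was left out in turn. Over the same 5 settings Mrpl46 was between -0.17 and 8.52, Mrps10 between -0.14 and 6.61 and Mrps14 between -0.33 and 3.84.

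Leaving out each cell of either group in turn gave medians of the log2 ratio between 0.08 and 0.63 for astrocytes, 0.47 and 0.73 for cultured hippocampal neurons, -1.09 and -0.70 for cortical slice neurons, -1.11 and -0.10 for CA1 and -2.80 and -1.41 for CA3. Leaving out Mrps6 was chosen after seeing the data.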
